A study of Rattus norvegicus with 6 samples.

Results

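Adenine-rich spliced circles are the circular RNAs (circRNAs) of the rat thalamus whose deposited spliced sequence is shorter than its genomic span and holds 36% A or more. The rule uses sequence alone, and it selected 1226 of the 31675 spliced circles, or 3.87%, out of 32445 circRNAs in the table. RNA came from the thalamus of 6 rats, 14 days into a model of temporomandibular joint pain. The 3 CFA rats received 50 µL of complete Freund's adjuvant, an oil with killed mycobacteria that keeps a joint inflamed, in both joints 2 times per week, and the 3 saline rats received 50 µL of saline on the same schedule. The sources used here do not name strain, age, sex or genome build. The files pair no identifier with a host gene, so circles are named by position and no tissue marker could be checked.

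A circRNA forms when the spliceosome joins the end of an exon back to the start of the same or an earlier exon. The product has no free ends and no poly(A) tail, and such RNAs are known to be plentiful in brain. Poly-T beads hold RNA by pairing with runs of A, which in messenger RNA means the tail. The labels' protocols state a purification with such beads, so a run of A inside a circle is the feature a bead could pair with. Sequences below run 5′ to 3′ in the strand of the deposited file.

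The adenine of these circles was spread through the sequence and rarely gathered into a long run. The exceptions are shown first, with the longest run of A in capitals and 20 bases on each side. A 14 nt run was shared by 5 circles on the minus strand of chromosome 4 that all have 182569250 as an end. An 11 nt run was found in a 467 nt circle of chromosome 18, 40228061 to 40228890, and in a 232 nt circle of chromosome 7, 32980208 to 32982696, both on the minus strand. These 7 circles are all of the adenine-rich ones with a run of 10 nt or more, and those with 11 nt runs, and the least read of the 5, were chosen with their values known.
chr4:182569250-182594233, 458 nt circle: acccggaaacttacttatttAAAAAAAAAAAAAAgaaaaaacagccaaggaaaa
chr18:40228061-40228890, 467 nt circle: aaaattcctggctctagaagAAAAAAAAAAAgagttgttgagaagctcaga
chr7:32980208-32982696, 232 nt circle: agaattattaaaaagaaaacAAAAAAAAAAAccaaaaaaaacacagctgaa

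The circles richest in A had a different look, with many runs of A of 7 nt or fewer, often broken by G. The highest share, 50.8% A, was that of a 195 nt circle of chromosome 18, 1286719 to 1294081 on the minus strand, whose longest run was 7 nt. It is printed whole, with the first of its 7 nt runs in capitals. Both circles that follow came from chromosome X, with 49.3% and 49.1% A over 383 and 350 nt and a longest run of 5 nt each. They are printed with 60 bases on each side of the first run of that length. They lie on opposite strands, and the longest stretch they have in common was 12 nt.
chr18:1286719-1294081, whole circle: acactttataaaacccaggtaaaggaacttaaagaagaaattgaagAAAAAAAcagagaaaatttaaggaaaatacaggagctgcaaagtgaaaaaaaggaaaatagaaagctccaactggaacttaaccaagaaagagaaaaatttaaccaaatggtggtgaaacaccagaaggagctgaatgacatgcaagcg
chrX:123718252-123720910, part of the circle: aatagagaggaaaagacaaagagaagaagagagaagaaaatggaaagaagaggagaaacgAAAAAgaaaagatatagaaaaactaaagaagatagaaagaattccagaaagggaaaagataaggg
chrX:123760490-123765639, part of the circle: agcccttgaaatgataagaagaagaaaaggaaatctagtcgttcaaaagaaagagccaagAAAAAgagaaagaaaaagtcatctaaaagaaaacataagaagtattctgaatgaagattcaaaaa

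The 5 adenine-rich circles with the most reads looked less extreme than these. Their longest runs were 5 to 7 nt, shown in capitals with 30 bases on each side, and their share of A was 36.4% to 39.1%.
chr6:136059672-136084622, 361 nt circle: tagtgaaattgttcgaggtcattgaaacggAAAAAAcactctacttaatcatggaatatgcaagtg
chr15:96717422-96720961, 748 nt circle: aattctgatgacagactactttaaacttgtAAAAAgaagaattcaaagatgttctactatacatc
chr4:66172555-66200637, 508 nt circle: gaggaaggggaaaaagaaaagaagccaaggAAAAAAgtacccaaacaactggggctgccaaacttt
chr5:128997614-128998323, 360 nt circle: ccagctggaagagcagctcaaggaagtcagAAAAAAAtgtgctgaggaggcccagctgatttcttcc
chr6:19003638-19012898, 458 nt circle: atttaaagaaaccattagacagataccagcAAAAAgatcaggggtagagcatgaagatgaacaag

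Across all 1226 circles the longest run of A, counted around the circle, had a median of 5 nt with quartiles of 5 and 6 nt. The other 30449 spliced circles had a median of 4 nt. A run of 6 nt or more was present in 42.3% of the adenine-rich circles and 13.2% of the others, and a run of 8 nt or more in 4.81% and 1.07%. At 10 nt or more the shares were 0.571% (7 circles) and 0.210% (64 circles). The longest run of any spliced circle, 18 nt, was in a circle below the 36% limit. In the densest window of 20 nt the adenine-rich circles held a median of 13 A and the others 11. The longest run spanned the back-splice junction in 7 adenine-rich circles (0.571%), where it exists only in the circular form.

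**Figure D1:**
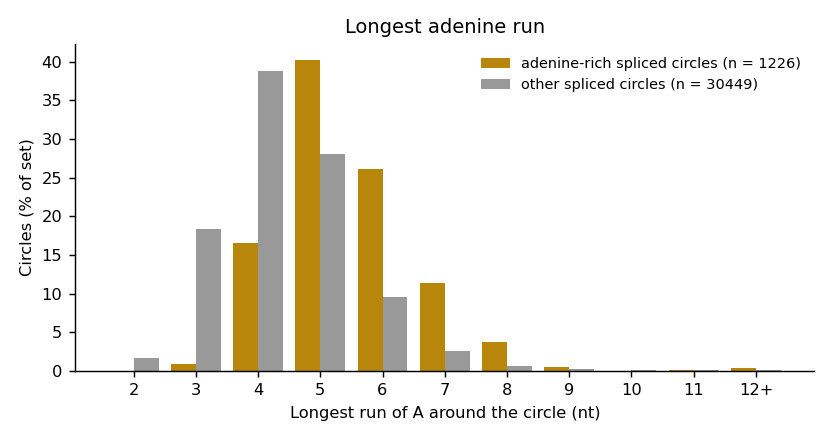
Share of circles (y axis, %) by the longest run of A around the circle (x axis, nt), for the 1226 adenine-rich and the 30449 other spliced circles; 12+ pools runs of 12 nt or more. The adenine-rich bars peak at 5 nt and the others at 4 nt, and in both sets few circles lie beyond 8 nt.

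Being rich in A was far more common than being rich in another base. At the same limit of 36%, 63 spliced circles were rich in C, 56 in G and 35 in T. In the adenine-rich circles the median composition was 37.6% A, 22.9% G, 21.1% T and 17.6% C, against 28.2% A, 24.8% G, 23.8% T and 22.9% C in the others. G differed less between the sets than C. A and G together exceeded 50% in 1226 of 1226 adenine-rich circles and in 77.5% of the others, a count that a high share of A largely fixes. The triplets AAA, GAA, AAG and AGA stood at 60.2, 48.0, 45.3 and 48.6 per 1000 positions, against 24.3, 27.1, 26.3 and 29.2 in the other spliced circles. The lowest ratio was that of CCG, 0.449, at 2.89 against 6.44.

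Short motifs followed the composition. GAAGAA, a purine repeat typical of exonic splicing enhancers, was held by 74.1% of the adenine-rich circles and 40.95% of the others. AATAAA, the core polyadenylation signal of messenger RNA, was held by 30.1% and 11.5%. GGACT, a favoured context of N6-methyladenosine, was less common, at 22.2% against 37.3%. TTTTTT was held by 5.79% and 6.65%. Motifs were searched on the deposited strand and around the circle. Matches of these motifs can overlap one another, and a match does not show that a motif is used. A reading frame without a stop codon over the linear sequence, with no start codon asked for, was found in 52.0% and 50.1%. TAA was 1.75 times as frequent in the adenine-rich circles (16.7 against 9.54 per 1000 positions). They were also shorter, at a median of 346 nt against 385 nt, and the shares were not matched for length.

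Many of the 1226 circles share sequence, so they are not independent examples. They came from 666 loci, a locus being a chain of overlapping circRNAs of 1 strand. A single adenine-rich circle was found at 437 loci, and 229 loci held 2 or more, 789 circles in all. Of the 1226, 642 shared a back-splice end with another adenine-rich circle, and around their longest run of A they held 986 distinct stretches of 41 nt. On the chromosomes with at least 100 spliced circles the share of adenine-rich ones ran from 1.17% (9 of 772 on chromosome 19) to 7.02% (54 of 769 on chromosome X), with 5.72% on chromosome 2.

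The richest locus, on the minus strand of chromosome 2 from 128562842 to 128636642, was almost wholly adenine-rich. Of its 24 circRNAs 23 passed the limit, with 36.5% to 43.9% A, lengths of 183 to 720 nt and longest runs of 4 to 8 nt, and 8 of them end at 128562842. The leading circle is 683 nt long, with 38.8% A, and spans 128562842 to 128580527. It is shown around its run of 8 nt.
chr2:128562842-128580527, 683 nt circle: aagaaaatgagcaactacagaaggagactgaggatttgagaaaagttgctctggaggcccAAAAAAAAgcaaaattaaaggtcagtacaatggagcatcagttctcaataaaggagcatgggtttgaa

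That leading circle had 109, 108 and 143 reads in CFA replicates 1 to 3 and 129, 133 and 171 in saline replicates 1 to 3. RPM below are reads per 1000000 circRNA reads of a library. The 23 circles together reached 617, 549 and 539 RPM after CFA and 804, 555 and 615 RPM after saline, values that overlap. Of the 17 tested, 0 passed between the groups (edgeR quasi-likelihood, lowest Benjamini-Hochberg-adjusted p = 0.912). Only 28 of all 22426 circRNAs tested passed, so 0 of 17 says little about this locus. The next loci by number of adenine-rich circles were on chromosome 13, 98305646 to 98424229 (17 of 30 circRNAs), chromosome 16, 54044629 to 54107348 (11 of 29), chromosome 2, 28938256 to 29019708 (11 of 16), and chromosome 8, 60386839 to 60581088 (9 of 25). Their adenine-rich circles held 80.8%, 66.6%, 85.6% and 6.33% of the locus reads. Over all 666 loci the median was 33.3%.

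Most adenine-rich circles were sparsely read. The library totals ran from 573696 to 1176178 circRNA reads, and the lowest count above 0 was 2, so a listed 0 may stand for 1 read. The 1226 circles had a median of 18 reads summed over the 6 libraries, with quartiles of 7 and 56.75 reads, and the others a median of 21. Reads in all 6 libraries were found for 282 of them (23.0%, against 25.8% of the others), and these held 81.8% of the adenine-rich reads. Another 379 (30.9%, against 28.96%) were read in 1 library each. A mean of 100 RPM or more was reached by 40 circles (3.26%, against 5.12%).

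The leading adenine-rich circle was the 361 nt circle of chromosome 6, printed above with its run of 6 A. It stood 82nd of all circRNAs by mean RPM, with 1415, 1545 and 966 RPM after CFA and 1328, 1097 and 1620 RPM after saline. The groups overlap, at 1309 ± 304 and 1348 ± 262 RPM (mean ± SD, n = 3 each). The 748 nt circle of chromosome 15 followed with 804, 999 and 623 RPM after CFA and 680, 590 and 1203 RPM after saline, highest in saline replicate 3. The 508 nt circle of chromosome 4 had 787, 500 and 1084 RPM after CFA and 802, 1040 and 623 RPM after saline. Its order across the libraries was another one, with CFA replicate 3 and saline replicate 2 highest.

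The 360 nt circle of chromosome 5, a span of only 710 nt, had 774, 618 and 633 RPM after CFA and 797, 537 and 972 RPM after saline. The 458 nt circle of chromosome 6 had 474, 620 and 630 RPM after CFA and 589, 577 and 719 RPM after saline. These 5 circles held 18.3% of the adenine-rich reads, and the ranges of neighbours in their order overlap. As log2 fold changes, CFA minus saline, they ranged from -0.21 to -0.08, with standard errors of 0.26 to 0.29 and a Benjamini-Hochberg-adjusted p of 0.9999 each by edgeR.

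The circles with the longest runs varied widely in level, and the 3 with the most A had 27 reads or fewer each. The 458 nt circle with the 14 nt run had 11, 18 and 29 reads in the CFA libraries, and 27, 74 and 31 in those of saline, or 25.5 ± 7.89 and 47.7 ± 14.9 RPM (mean ± SD, n = 3 each). In RPM every saline library lay above every CFA library, yet the difference did not pass (log2 fold change -0.93 ± 0.56 SE, Benjamini-Hochberg-adjusted p = 0.912 by edgeR). The 371 nt circle with the same end had 20, 0 and 52 reads in the CFA libraries, and 28, 42 and 19 in those of saline.

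The 3 other circles with this run had 41, 9 and 3 reads in all. The circles with the 11 nt runs had 17 and 3 reads. The circle with 50.8% A was read in saline replicate 3 alone, with 5 reads, and the pair from chromosome X had 14 and 27 reads over the 6 libraries. Circles with the same 14 nt run thus ranged from 3 to 190 reads.

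At the limit itself levels varied as widely. Just inside, both at 36% A, a 325 nt circle of chromosome 11 had 8 reads in 2 libraries and a 650 nt circle of chromosome 3 had 86 reads in 6. Just outside, a 589 nt circle of chromosome 4 had 334 reads and a 1278 nt circle of chromosome 6 had 475, each in 6 libraries.

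As a whole, the adenine-rich circles were read slightly less than the other spliced circles of the same library, or level with them. The test of this difference could not pass, as given below. Levels were compared over circles with at least 10 reads summed over the 6 libraries, 812 adenine-rich (66.2%) and 21054 other ones (69.1%). The difference of medians on the log2(RPM + 1) scale was 0, -0.24 and -0.15 in CFA replicates 1 to 3 and 0, -0.12 and -0.15 in saline replicates 1 to 3. It was below 0 in 4 libraries and exactly 0 in 2, with a mean of -0.11 ± 0.09 (SD, n = 6 libraries). In reads, the medians were 6 against 6, 5 against 6 and 8 against 9 in CFA replicates 1 to 3. They were 5 against 5, 10 against 11 and 8 against 9 in saline replicates 1 to 3. Each pair was thus tied or next to each other in whole reads, which sets the sizes of these differences. The exact two-sided sign-flip permutation test gave p = 0.125, also 0.125 after Benjamini-Hochberg adjustment over the 4 comparisons made within libraries. With 2 differences of exactly 0 this p is the smallest the test can give, so it could not pass. The mean was -0.05 at a limit of 34% A, -0.24 at 38% and -0.20 without the minimum of 10 reads. In that last setting both medians were 0 in CFA replicate 2 and saline replicate 1. With means in place of medians the difference was -0.17, below 0 in 6 of 6 libraries (exact two-sided sign-flip permutation test, p = 0.03125, adjusted p = 0.0625).

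Detection followed the same order. The share of circles with a read was 51.2% of the adenine-rich against 52.8% of the other circles in CFA replicate 1, 47.8% against 48.8% in replicate 2 and 56.9% against 60.2% in replicate 3. In saline replicates 1 and 2 it was 44.6% against 45.5% and 63.2% against 66.9%. Saline replicate 3 had the opposite order, 61.9% against 61.1%. The mean difference was -1.61 ± 1.68 percentage points (SD, n = 6 libraries; exact two-sided sign-flip permutation test, p = 0.0625, adjusted p = 0.0833). It was -5.19 points at a limit of 38% A, -0.405 within bins of 2 percentage points of GC content and -0.284 among circles with at least 10 reads. The smallest p that 6 libraries allow is 0.03125, and it is larger where a difference is exactly 0. Because of such differences, none of the 4 comparisons could fall below 0.05 after adjustment. The libraries measure the same circles, so these tests cover the spread between rats and not the choice of circles.

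Spliced length moved with the level, and it differed between the sets. The adenine-rich circles were shorter, with a median of 346 nt against 385 nt. Among them the median of mean RPM was 1.98 below 200 nt (74 circles), 2.23 from 200 to below 300 nt (322), 2.94 to below 400 nt (438) and 6.24 to below 500 nt (229). It was 14.6 to below 600 nt (94) and 28.6 at 600 nt or more (69). In the same length classes the other spliced circles had medians of 2.03, 1.84, 3.04, 5.85, 12.9 and 25.7 RPM. Spearman's rho between length and mean RPM was 0.41 over the 1226 circles and 0.43 over the others, given as a description over circles that share libraries.

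**Figure D2:**
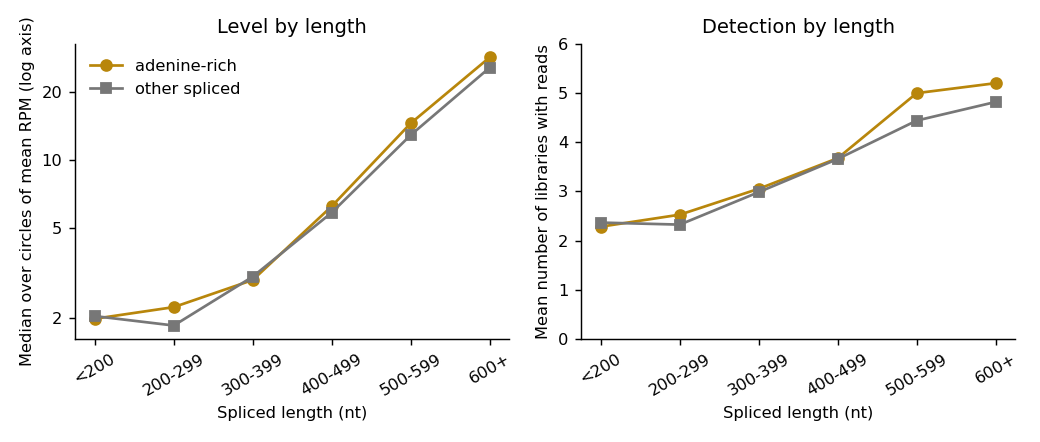
Left, the median over circles of the mean RPM (log axis) and right, the mean number of libraries with reads (of 6), by spliced length in nt, for adenine-rich and other spliced circles. Both sets rise together, from about 2 RPM below 200 nt to 28.6 and 25.7 RPM at 600 nt or more.

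Within bins of 100 nt of length the order of detection turned round, and the level difference lay near 0. The difference of medians, weighted by adenine-rich circles, was 0.05 on the log2(RPM + 1) scale, above 0 in 5 of 6 libraries (exact two-sided sign-flip permutation test, p = 0.219). It ran from -0.08 in CFA replicate 3 to 0.21 in CFA replicate 2. Detection was 2.19 percentage points higher in the adenine-rich circles, by 0.0229 to 4.88 points and higher in 6 of 6 libraries. Its exact sign-flip permutation p was 0.03125, the smallest possible, and 0.0625 when adjusted over the 4 comparisons. Within bins of 2 percentage points of GC content the level difference was -0.09, below 0 in 6 of 6 libraries. At the 337 loci that hold both kinds at 10 reads or more, the mean difference within a locus was -0.19, also below 0 in 6 of 6 libraries, in a comparison added after the data were seen. There the adenine-rich circles were also shorter, with a mean length difference of -81.6 nt.

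**Figure D3:**
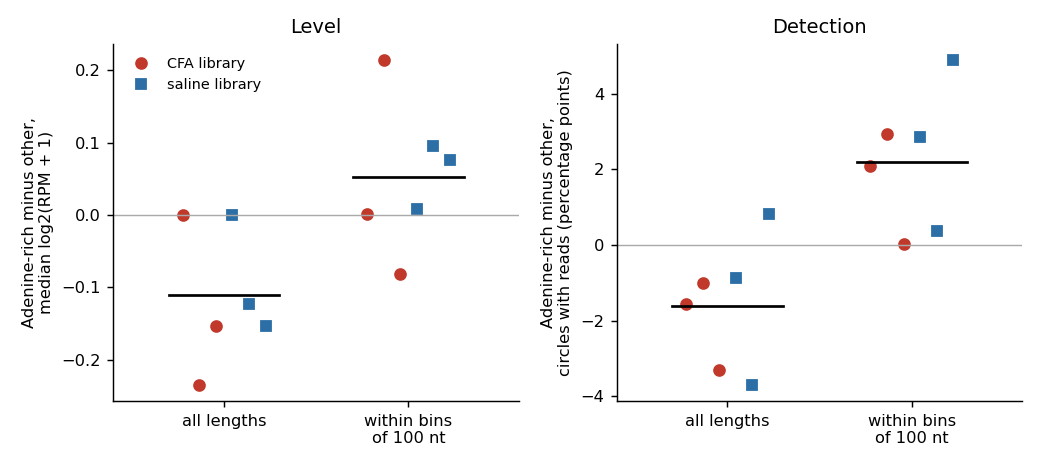
Adenine-rich minus other spliced circles in each library (points; circles CFA, squares saline), for the median log2(RPM + 1) on the left and the share of circles with reads on the right, over all lengths and within bins of 100 nt; black lines are means of 6 libraries. Over all lengths the means lie below 0 (-0.11 and -1.61 points), and within bins of length above it (0.05 and 2.19 points).

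Within the adenine-rich circles the level was lower at a higher share of A. Circles with 36% to below 38% A (706) had a median of 4.19 RPM, those with 38% to below 40% (300) 3.21 RPM, and those with 40% or more (220) 2.66 RPM, at median lengths of 355.5, 351.5 and 314 nt. Across all spliced circles the level peaked in the middle, with 4.76 RPM at 28% to below 32% A and 2.84 RPM below 20% A, where the median length was 345 nt. Low levels were thus seen at both ends of the range of A. The share of T gave a like shape, with 4.47 RPM at 20% to below 24% T and 3.15 RPM for the 35 circles at 36% or more.

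Levels were also compared by the longest run of A and, in the same way, of T. Neither difference passed after adjustment, and neither could, since each p was already the smallest its differences allow. Among spliced circles with at least 10 reads, 280 had a run of 8 A or more and 18536 a longest run of 5 or fewer. The median log2(RPM + 1) of the first exceeded that of the second by 0.20, 0.29 and 0 in CFA replicates 1 to 3 and by 0.24, 0.22 and 0.64 in saline replicates 1 to 3. The mean was 0.27 ± 0.21 (SD, n = 6 libraries; exact two-sided sign-flip permutation test, p = 0.0625, adjusted p = 0.0833). For runs of T (113 against 20310 circles) it was 0.42 ± 0.08, above 0 in 6 of 6 libraries (exact two-sided sign-flip permutation test, p = 0.03125, adjusted p = 0.0833). The difference between A and T was not tested. Without the minimum of 10 reads the mean differences were 0.83 for A and 1.47 for T. In CFA replicate 2 only 47.9% and 48.4% of the circles with short runs of A and T had a read. In saline replicate 1 these were 44.8% and 45.1%, so the medians of the short-run circles were 0 in both libraries. The differences were 2.84 and 3.23 in CFA replicate 2 and 0 and 2.82 in saline replicate 1. In the other libraries they were 0.27 to 0.81 for A and 0.35 to 1.09 for T.

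Length moved with both kinds of run. Within bins of 100 nt the differences were 0.01 for A, above 0 in 3 of 6 libraries, and 0.08 for T, above 0 in 5 of 6. Means in these bins, chosen after the data were seen, gave 0.03 for A, above 0 in 3 of 6 libraries. For T they gave 0.11, above 0 in 6 of 6 (exact two-sided sign-flip permutation test, p = 0.03125, adjusted p = 0.0833). Circles with 10 or more A in a row exceeded those with 5 or fewer by 0.30, and for T this was 0.97, at median lengths of 430 and 637 nt. Within the adenine-rich circles the median level was 2.73 RPM at a longest run of 4 nt (203 circles), 3.10 at 5 nt (494), 4.94 at 6 nt (320), 3.14 at 7 nt (139) and 5.92 at 8 or 9 nt (52). Their median lengths were 304, 341, 366.5, 361 and 384 nt, and Spearman's rho between run and level was 0.07 over the 1226 circles.

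**Figure D4:**
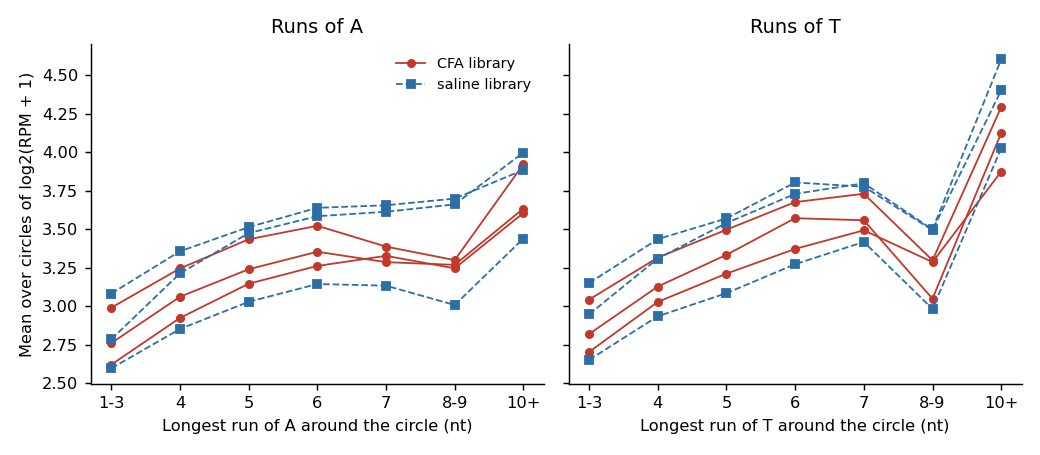
Mean over spliced circles with at least 10 reads of log2(RPM + 1) in each library (lines), by the longest run of A (left) or T (right) around the circle in nt. The level is lowest at runs of 1 to 3 nt in both panels, and for runs of 10 nt or more it is 3.44 to 3.999 for A and 3.87 to 4.60 for T.

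The study compared CFA with saline to find thalamic circRNAs that change in lasting joint pain. As a group, the adenine-rich circles held shares of reads that overlapped between CFA and saline, at the limit of 36% A and with all libraries. They took 2.31%, 2.36% and 2.19% of the circRNA reads in CFA replicates 1 to 3 and 2.39%, 2.21% and 2.56% in saline replicates 1 to 3. The means were 2.29 ± 0.0856% and 2.38 ± 0.175% (SD, n = 3 each), and an exact permutation test, two-sided, gave p = 0.4. As a share of the spliced circles detected they made up 3.74 ± 0.0665% after CFA and 3.79 ± 0.128% after saline, where the exact permutation test, two-sided, gave p = 0.5. With 3 rats per group the smallest p is 0.1. Both shares were highest in saline replicate 3. Without it the CFA minus saline difference in the share of reads went from -0.0949 to -0.00794 percentage points, and the detected share was 0.00870 points higher in CFA. Without saline replicate 2 the difference in the share of reads was -0.183 points, and the groups did not overlap. With all libraries and a limit of 38% A it was -0.0388 points (exact permutation test, two-sided, p = 0.1). That p is the smallest possible, so every CFA share there lay below every saline share. At a limit of 34% A the difference was -0.0984 points (exact permutation test, two-sided, p = 0.8). The overlap thus depended on the limit and on the libraries kept. Less RNA per cell and fewer cells that make it cannot be told apart in bulk tissue.

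Of the 812 adenine-rich circles tested, 1 was higher and 0 lower in CFA by the edgeR quasi-likelihood fit, adjusted by Benjamini-Hochberg over all 22426 circRNAs tested. Over all circRNAs 0.0624% were called higher and 0.0624% lower. Without adjustment 6 were higher and 12 lower at p below 0.05, or 0.739% and 1.48%, against 1.23% and 1.45% of all circRNAs. DESeq2 called 0 of the 812 in either direction, with 0% of all circRNAs called higher and 0.0178% lower. Without adjustment it had 4 of the 812 higher and 11 lower at p below 0.05. Over all 22426 circRNAs it had 379, whose split by direction was not counted. The log2 fold changes of the 812 had a median of -0.06, 383 above and 429 below 0, and those of all tested circRNAs a median of -0.05. Without saline replicate 3 the median of the adenine-rich circles was 0.10. The median standard error of the 812 was 1.76, and it was 0.62 for the 282 read in all 6 libraries. RPM of the groups did not overlap in 22 circles higher and 42 lower in CFA, 2.71% and 5.17%, against 3.21% and 3.42% of all tested.

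The circle called higher is 329 nt long, with 36.8% A and a longest run of 4 nt, and lies on the plus strand of chromosome 12, 37734515 to 37739373. It had 43 and 37 reads in CFA replicates 1 and 2 and is listed at 0 in CFA replicate 3 and in the 3 saline libraries. In the deposited labels CFA replicate 3 carries another letter than CFA replicates 1 and 2, and no meaning of it is stated. The CFA group overlaps the saline group at 0, and over the group the reads of this circle were at least 32.4-fold higher, taking 3 counts over the saline libraries as the floor. The fitted log2 fold change of 8.002 depends on the prior count (Benjamini-Hochberg-adjusted p = 1.18e-05 by edgeR). Its adjusted p was 0.99999 in DESeq2 and in edgeR with at least 30 counts, 0.9999 in edgeR without saline replicate 1, and 0.232 in edgeR without CFA replicate 1. Its back-splice junction is printed with the 29 bases upstream of the junction in lower case and the 29 downstream in capitals.
chr12:37734515-37739373, junction: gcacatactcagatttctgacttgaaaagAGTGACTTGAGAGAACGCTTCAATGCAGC

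The next circles by p did not pass. A 503 nt circle of chromosome 2, 57539193 to 57545068 on the minus strand with 38.6% A, had 45, 39 and 46 reads in the CFA libraries, and 11, 21 and 17 in those of saline. In RPM it was 59.8 ± 8.81 and 18.4 ± 0.690 (mean ± SD, n = 3 each), without overlap, and its log2 fold change was 1.66 ± 0.56 SE (edgeR, unadjusted p = 0.00296, Benjamini-Hochberg-adjusted p = 0.912). It was read in every library, unlike the called circle. A 497 nt circle of chromosome 13, 103344764 to 103345543 on the plus strand, had 2, 0 and 5 reads in the CFA libraries, and 25, 15 and 16 in those of saline.

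The other 3 named by their p were read in saline libraries only, with 31, 32 and 30 reads in all. They were a 417 nt circle of chromosome 9, 7065180 to 7082738, a 284 nt circle of chromosome 2, 219622834 to 219626341, and a 418 nt circle of chromosome 5, 113906799 to 113935267. Among the 812, 48 (5.91%) had reads in CFA libraries only and 61 (7.51%) in saline libraries only, against 3.82% and 7.34% of all tested. Of the 40 adenine-rich circles at 100 RPM or more, 30 had a log2 fold change below 0, with a median of -0.11 and a range of -0.79 to 0.54. Of the 1705 tested circRNAs at that level 977 were below 0, with a median of -0.05.

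**Figure D5:**
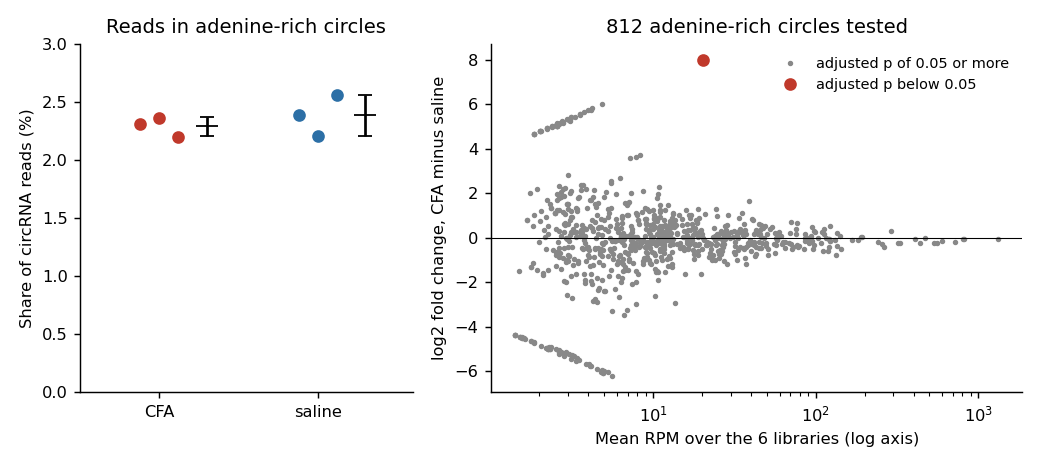
Left, share of circRNA reads in adenine-rich circles per library (points, %) with the mean ± SD of 3 rats beside them; right, log2 fold change (CFA minus saline) of the 812 tested circles against mean RPM (log axis). The shares of both groups overlap, 1 circle (red) is past the threshold, and the bands near 5 and -5 are circles read in 1 group only.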

How the data were processed

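Thalamus libraries of 6 rats were grouped by their titles. Per the labels' protocols, poly-T beads took RNA out of total RNA before fragmentation and random-hexamer priming, and no RNase R step is named. The submitters' processing notes list DESeq2 1.20.0, featureCounts 1.5.0-p3, HISAT2 2.0.5 and StringTie 1.3.3b. The sources used here do not name the circRNA caller. The authors deposited raw counts per circRNA and RPM values (named TPM in the header), and sequences with positions. RPM were recomputed from the counts, and 1 was added to starts. Of 32489 sequence entries, 44 were second entries of an identifier, and the first was used. Without molecular identifiers, PCR copies cannot be told from molecules.

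circRNAs with at least 10 counts were tested with edgeR 4.0.16 (R 4.3.3; TMM, robust quasi-likelihood, Benjamini-Hochberg adjustment, threshold 0.05), with DESeq2 1.42.0 as an alternative; SE are log2 fold change over the root of F. Shares and within-library differences used exact permutation tests. Named circles were the 4 with the longest run, 5 with most RPM, 3 with most A, 6 with smallest p, 2 on each side of the limit, and the 5 loci with most. Members, lists and rules were chosen with earlier results of these data known. Lists of host genes and cell type markers were not used, since no host gene is paired. The edgeR fit and the permutation tests were run on simulated data. The changed circles there were well read, so changes in sparsely read circles, like most adenine-rich ones, were not tried.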

Additional observations from a re-analysis of the deposited data

How the results depend on the processing

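The level difference of -0.11 (adenine-rich minus other) was 0.052 within bins of length and 0.061 with means in those bins, and neither value passed. The latter was chosen after the data were seen, as was the comparison within loci. The level difference stayed below 0 in the other alternatives, from -0.238 at a limit of 38% A to -0.046 at 34%, and at -0.133 to -0.086 when a library was left out. The detection difference of -1.61 points reversed to 2.19 within bins of length and was -2.09 to -1.19 without a library, -5.19 at a limit of 38% A, -0.405 within bins of GC and -0.284 with at least 10 counts. Without a library, the differences for runs of A and T were 0.19 to 0.32 and 0.40 to 0.45, where 5 libraries allow no p below 0.0625. Without the count filter they were 0.83 and 1.47, with some medians at 0 reads. The CFA minus saline share of reads, -0.09 percentage points, stayed below 0 in the alternatives run, but was -0.183 to -0.00794 without a library, smallest without saline replicate 3; the detected share, -0.05, was -0.119 to 0.00870 without a library, above 0 only without saline replicate 3. The count of 1 called circle was 0 in DESeq2, with at least 30 counts, with filterByExpr (which dropped that circle) and at a limit of 38% A. Over all circRNAs 28 of 22426 were called as reported and 4 of 22426 in DESeq2. With at least 30 counts 0 of all 13949 were called, and with filterByExpr 0 of all 9228. The count among adenine-rich circles was 3 of 1969 tested at a limit of 34%. It was 0 to 2 without a library, 0 without CFA replicate 1 or saline replicate 1 and 2 without saline replicate 3. In those fits 15 to 40 of all 20029 to 21673 circRNAs tested were called. The labels pair no libraries. Same-numbered libraries did not deviate together (r of 0.02, -0.00 and -0.07), which does not show that no pairing existed. With the replicate block 1 adenine-rich circle was called, of 45 over all circRNAs. The shares then differed by -0.09 and -0.05 (exact permutation test over 3 pairs, p = 0.75 each).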

Other observations

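The study also predicted microRNA sites in its circRNAs. Seed matches, the complement of bases 2 to 8 of a mature microRNA, were counted around the circle for the 693 mature rat microRNAs of RefSeq (build GRCr8), which have 585 distinct sites. This comparison was chosen after the data were seen, and it has no test, because the rule on A shapes every site. At sites with 0 A the median ratio of the share of adenine-rich circles to the share of other spliced circles was 0.320, at 2 A it was 0.713 and at 4 A it was 1.58. Of the 13 sites held by 10% or more of either set, 4 were at least 2 times as common in the adenine-rich circles. These are shown with the seed in capitals, since each has a seed rich in U.
rno-miR-130a-5p: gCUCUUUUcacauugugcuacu
rno-miR-153-5p: gUCAUUUUugugauguugcagcu
rno-miR-130b-5p: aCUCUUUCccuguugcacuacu
rno-miR-30a-3p: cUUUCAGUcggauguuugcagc

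The site of rno-miR-130a-5p was held by 258 adenine-rich circles (21.0%) and 6.25% of the others, that of rno-miR-153-5p by 265 (21.6%) and 6.95%. For rno-miR-130b-5p the shares were 17.3% and 7.99%, and for rno-miR-30a-3p 10.3% and 5.00%. The lowest ratio among the 13 was that of rno-miR-3575, 6.20% against 10.3%. A match says nothing of binding, and levels of the microRNAs were not analysed here.

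A 366 nt adenine-rich circle of chromosome 2, 157068875 to 157077831 on the minus strand, had 4, 58 and 11 reads in the CFA libraries, and 0, 3 and 34 in those of saline. It was called higher in CFA without saline replicate 3 alone (edgeR, Benjamini-Hochberg-adjusted p = 0.0484), and its adjusted p with all libraries was 0.912. It falls outside the rule for named circles and was chosen with its values known.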
